A study of Rattus norvegicus with 8 samples.

Results

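Cytosolic ribosomal protein genes encode the proteins that build the small (40S) and large (60S) ribosomal subunits together with ribosomal RNA. Array probe sets were taken as members when their annotation gave a single symbol, Rpl or Rps followed by a number, or Rplp0, Rplp1, Rplp2 or Rpsa. The kinases named Rps6k were left out. This gave 47 probe sets of 42 genes, 13 of the small and 29 of the large subunit, among 10411 genes with a probe set of 1 symbol. Each gene was represented by its strongest probe set. Expression had been measured in primary cultures of semicircular canal duct (SCCD) epithelium, the sodium-absorbing lining of the vestibular canals, from neonatal Wistar rats. The control group was untreated (n = 4 arrays) and the other group received 100 nM dexamethasone (n = 4 arrays), a synthetic glucocorticoid. The arrays measured whole cultures, in which fewer cells of a type and less RNA per cell cannot be told apart. The sources used here do not say whether the arrays of a group came from separate cultures or dissections, and the p-values measure only the spread between these arrays.

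Most ribosomal proteins occur once in each ribosome, and their transcripts are among the best studied examples of coordinated expression. Most of these transcripts begin with a C followed by an uninterrupted stretch of C and U, the 5′ terminal oligopyrimidine (TOP) tract. Through this tract the mTOR kinase pathway controls how well they are translated, mostly without a change in the amount of transcript. In skeletal muscle glucocorticoids slow growth in part through inhibitors of mTOR, whereas epithelia such as the SCCD respond to them with sodium absorption.

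The sequences around the annotated start of transcription show a feature that is common among ribosomal protein genes and that played no part in choosing them. RefSeq promoter windows (build GRCr8) were found for 37 of the 42 genes. A run of at least 8 bases that are each C or T on the coding strand, touching the 10 bases around the start, occurred in 19 of these 37 windows (51.4%). The same run occurred in 8.67% of all 33469 windows. Below, 30 bases are printed for each gene, 15 before and 15 after the annotated start. Capitals mark the longest run of C and T that touches the 10 bases around the start. At Rps23 this run goes on past the printed bases. The first lines belong to some of the genes whose values are given in detail further on, and the last 2 lines belong to paralogs of restricted or inducible expression.

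Rps15a: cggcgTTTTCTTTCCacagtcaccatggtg
Rpl4: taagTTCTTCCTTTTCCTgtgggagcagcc
Rpl34: CCCCTTCCTTTTCCTCTTCCggggacggtg
Rps23: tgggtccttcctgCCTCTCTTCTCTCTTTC
Rps24: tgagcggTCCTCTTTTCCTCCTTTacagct
Rpl22: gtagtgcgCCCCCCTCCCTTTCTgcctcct
Rplp0: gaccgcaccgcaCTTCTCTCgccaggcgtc
Rpsa: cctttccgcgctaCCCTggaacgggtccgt
Rps27l: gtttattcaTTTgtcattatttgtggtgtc
Rpl3l: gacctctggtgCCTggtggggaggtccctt

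These windows lie at chr1:181860270-181860299 (minus strand) for Rps15a, chr8:73566462-73566491 (plus) for Rpl4, chr2:221962269-221962298 (minus) for Rpl34 and chr2:23814502-23814531 (plus) for Rps23. The window of Rps24 lies at chr16:96502-96531 (plus), that of Rpl22 at chr5:168117946-168117975 (plus), that of Rplp0 at chr12:46718376-46718405 (minus) and that of Rpsa at chr8:128728864-128728893 (plus). The paralog windows lie at chr8:76443643-76443672 (plus, Rps27l) and chr10:14258431-14258460 (plus, Rpl3l). The run was 21 bases long at Rps23 and 20 at Rpl34, against 4 at Rpsa and 3 at both Rps27l and Rpl3l. Of the genes not printed, Rps3 had a run of 1 base, Rps6 of 2, and Rpl11 and Rpl18 of 3. The median run over the 37 windows was 8 bases. An annotated start can lie some bases away from the one used in these cells, and a shorter run in this window does not show that the tract is absent.

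In the full windows, 250 bases before to 50 after the start, GGGCGG (the GC box, on either strand) was present in 23 of the 37 ribosomal protein windows (62.2%) and in 33.1% of all windows. CGGAAG, the core bound by ETS factors, was present in 17 (45.9%) against 16.6% of all windows. AAGATGGC, a YY1 motif, was present in 4 (10.8%) against 3.17%, and TATAAA, the TATA box, in 5 (13.5%) against 14.2%. TGTTCT, a half-site of the glucocorticoid receptor, was present in 8 (21.6%) against 20.7% of all windows. These are matches of letters on either strand and not measured binding sites.

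Before the comparison, every array was rescaled so that its trimmed mean signal, without the top and bottom 2% of probe sets, was 500 in arbitrary units. Equal changes of all transcripts are therefore not visible, and no signal gives the amount of ribosomes per cell. As deposited, this mean was 500.1 on replicates 1 and 2 of both groups and 202 to 336 on replicates 3 and 4, which are called the 2 array sets here. The array of control replicate 3 had the lowest mean and stood apart from the others. The 10 epithelial markers, such as keratins and claudins, all exceeded the mean signal of 100 that was needed for testing. Their summed signal was 49401 to 61541 in control and 48957 to 54289 with dexamethasone. Of these 10 markers, 6 were positive and 4 negative, 0 were called higher and 1 lower, against 1.88% and 0.81% of all probe sets tested. That 1 was Krt18, with a log2 fold change of -0.47 (limma, adjusted p = 0.0300). Krt8 had -0.33 and Krt19 0.31 (limma, adjusted p = 0.197 and 0.279). Of 10 fibroblast markers 4 exceeded it, and their summed signal was 5680 to 7389 in control and 4342 to 7444 with dexamethasone. Of the macrophage, endothelial, melanocyte and neuronal or Schwann cell markers with a probe set, 4 of 9, 2 of 6, 1 of 2 and 2 of 6 exceeded it, and no hair cell marker of the list had a probe set. The summed endothelial signal, 992 to 1272 in control and 2792 to 3338 with dexamethasone, differed without overlap, but its 2 markers past the filter went opposite ways. Kdr, a receptor for vascular endothelial growth factor, rose by 2.00 and Flt1, another such receptor, fell by 1.96 on the log2 scale (limma, adjusted p = 2.98e-05 and 0.020). Flt1 read 168.4 to 197.3 in control and only 19.3 to 85.75 with dexamethasone. It passed the filter through its control arrays alone, and the size of its fall rests on low signals. The summed macrophage signal, 916 to 1176 in control and 1277 to 1575 with dexamethasone, did not overlap either, although none of its 4 markers passed the test. Their part in the results was not tested.

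Of the 42 ribosomal protein genes, 40 had a mean signal of at least 100 and were tested. The other 2 were Rpl3l, a paralog of Rpl3 made in heart and skeletal muscle, with signals of 5.89 to 32.7 over the 8 arrays, and Rpl30, with 49.1 to 96.8 at its only probe set of 1 symbol. A probe set annotated to Rpl30 together with its copies read 6147 to 8010, and the low signal of the other does not show that the transcript was scarce. The array holds another 31 probe sets annotated to a ribosomal protein gene together with its numbered copies or pseudogenes, of 29 families. With these, 70 families of ribosomal proteins were measured in all. Pseudogenes of ribosomal proteins are common in rodents, and probes of a single symbol may also bind their transcripts. The strongest probe sets of 38 of the 42 genes carried the plain suffix, 3 the suffix for several transcripts of the same gene and 1, that of Rpsa, the suffix for probes shared between transcripts.

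**Figure D1:**
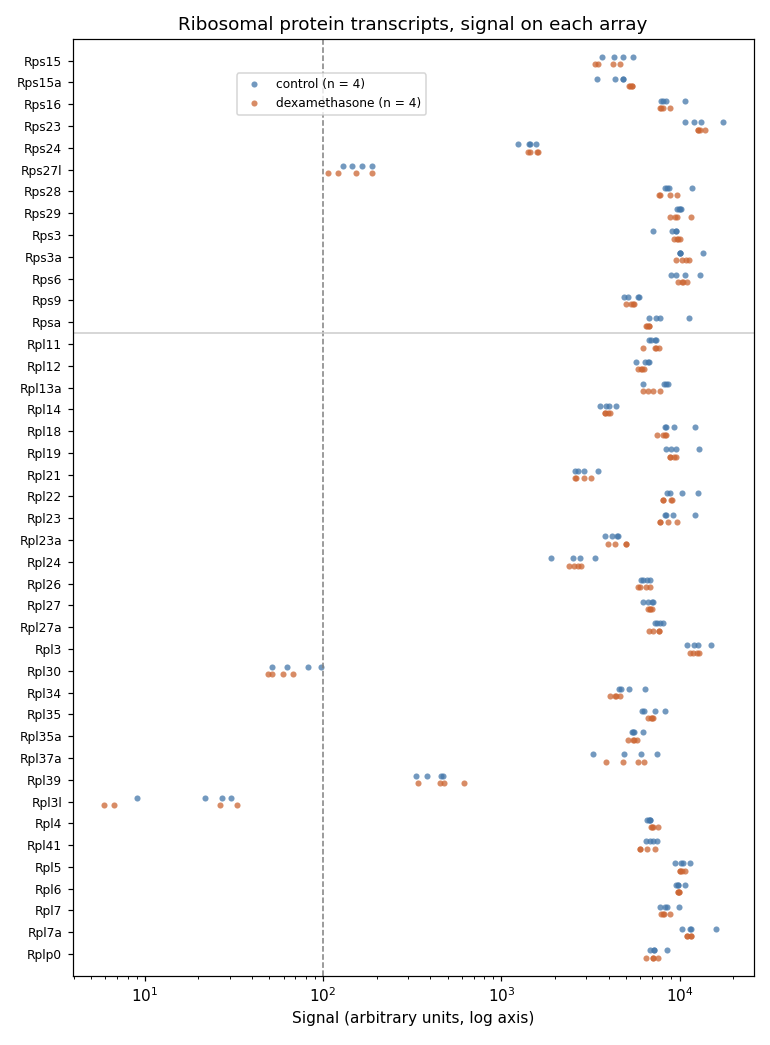
Signal of the strongest probe set of each of the 42 ribosomal protein genes on each array (points, 4 control and 4 dexamethasone arrays), in arbitrary units on a log axis, with the small subunit above the grey line. The dashed line is the mean signal of 100 needed for testing, and only Rpl3l and Rpl30 lie wholly below it.

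None of the tested ribosomal protein transcripts was called as changed by dexamethasone. Of the 40 genes tested, 0 were higher and 0 were lower at an adjusted p under 0.05 (limma), and 3, Rps15a, Rpl34 and Rpsa, had an unadjusted p under 0.05. For comparison, 2.69% of the 10368 probe sets tested were called, 1.88% higher and 0.81% lower, and 16.1% had an unadjusted p under 0.05. The 0 calls among 40 genes are near the overall share and do not by themselves set these genes apart. The median log2 fold change of the 40 genes was -0.044, against -0.023 over all probe sets tested. Single values ran from -0.29 (Rpsa) to 0.30 (Rps15a). A difference past 1.3-fold (0.38 on the log2 scale), the limit that the methods of the study used, was seen in 0 of the 40 genes and in 14.9% of all probe sets tested. By sign, 31 genes were negative and 9 positive, against 54.1% of all probe sets tested with a negative value, and without control replicate 3 the split was 22 negative and 18 positive. The values of 24 genes lay within 0.1 of no difference.

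The data bound the possible change of most of these transcripts closely. The whole 95% confidence interval lay inside 1.3-fold for 28 of the 40 genes, against 20.0% of all probe sets tested. Among the 668 tested probe sets whose mean signal reached 2853, which is the 10th percentile of the ribosomal protein genes, this share was 59.7% and 3.29% were called. The median SD within groups was 0.16 on the log2 scale for the 40 genes, 0.15 for these 668 probe sets and 0.23 for all probe sets tested. The interval that reached farthest from 0, down to -0.65, belonged to Rps27l.

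**Figure D2:**
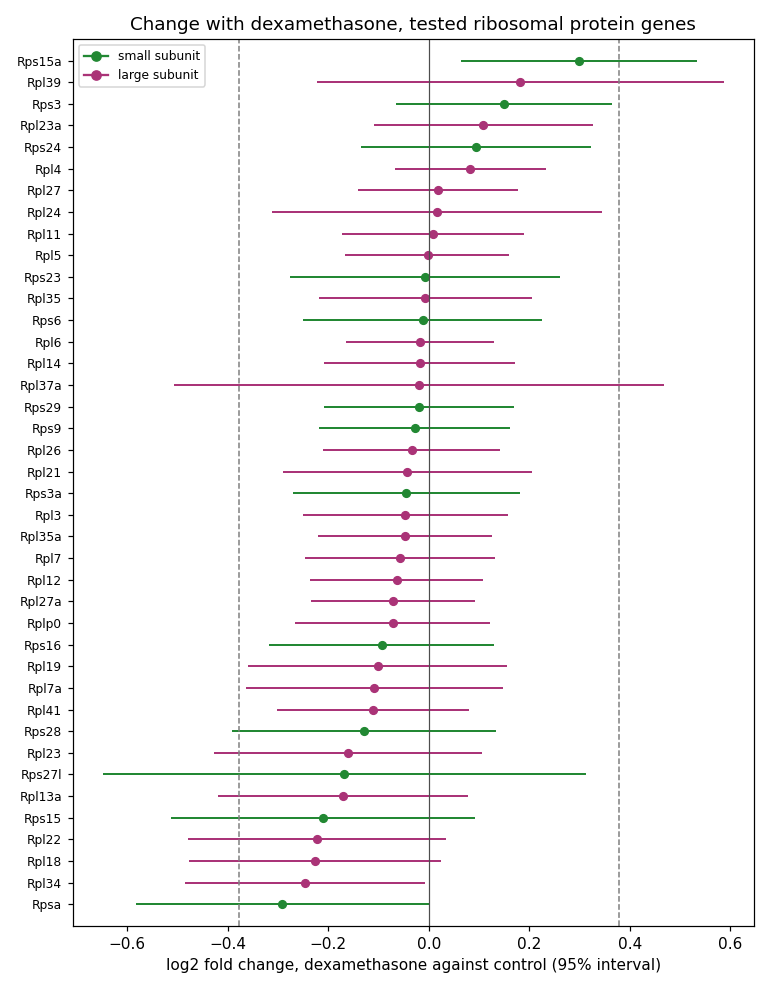
Difference in log2 signal between dexamethasone and control (points, n = 4 arrays a group) for the 40 tested ribosomal protein genes, with the 95% interval from limma (lines), coloured by subunit. Dashed lines mark 1.3-fold in either direction, and 28 intervals lie wholly between them.

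In the small subunit, Rps15a had the largest positive difference of all members. Its signal was 4322, 4798, 3450 and 4802 on the 4 control arrays and 5386, 5175, 5246 and 5373 on the 4 dexamethasone arrays. Every dexamethasone array was above every control array, while the lowest value, on control replicate 3, stood well below the rest. The log2 fold change was 0.30 with an SE of 0.11 and a 95% interval of 0.066 to 0.53 and missed the threshold (limma, adjusted p = 0.186). An exact permutation test of the 4 against 4 values gave a two-sided p of 0.0286, the lowest that this design can give. Replicates 1 and 2 alone had a log2 fold change of 0.21, replicates 3 and 4 alone had 0.38, and all arrays but control replicate 3 had 0.19.

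Rpsa, a protein of the small subunit that was first described as a precursor of the laminin receptor, had the most negative difference. Its strongest probe set read 7340, 7746, 11226 and 6747 in control and 6713, 6756, 6467 and 6540 with dexamethasone. The value of control replicate 3 stood far above the others, and the groups overlapped only by the last control array and the second dexamethasone array. The log2 fold change of -0.29 (95% interval -0.58 to -0.0024, limma, adjusted p = 0.304) became -0.13 without control replicate 3. The other 2 probe sets of Rpsa had -0.13 and -0.12 (limma, adjusted p = 0.461 and 0.788), so that all 3 had the same sign and none passed the test.

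Rps3, which lines the channel where messenger RNA enters the ribosome and also acts in DNA repair, read 9099, 9542, 7061 and 9512 in control and 9252, 9783, 9659 and 10084 with dexamethasone. The groups overlapped, with control replicate 3 lowest. Its log2 fold change was 0.15 (95% interval -0.064 to 0.36, limma, adjusted p = 0.506). Rps6, the small subunit protein that S6 kinases phosphorylate downstream of mTOR, read 8948, 9502, 13087 and 10735 in control and 10255, 9778, 10444 and 11019 with dexamethasone. All 4 dexamethasone values of Rps6 lay between the lowest and the highest control value, and the log2 fold change was -0.012 (95% interval -0.25 to 0.22, limma, adjusted p = 0.974).

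Rps24 acts in the processing of the precursor of 18S ribosomal RNA, and its mutation causes Diamond-Blackfan anaemia. Its stronger probe set read 1445, 1560, 1245 and 1428 in control and 1577, 1606, 1411 and 1457 with dexamethasone, with overlap and a log2 fold change of 0.094 (limma, adjusted p = 0.718). The weaker probe set read 147, 132, 156 and 115 in control and 172, 216, 172 and 234 with dexamethasone. Here every dexamethasone array was above every control array, the log2 fold change was 0.52 (95% interval 0.13 to 0.92) and the adjusted p was 0.175 (limma). The 2 probe sets of Rps24 thus had the same sign but differed in size, and neither passed the test.

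Rps15, which sits in the head of the small subunit and is needed for its export from the nucleus, had signals of 3672 to 5479 in control and 3372 to 4602 with dexamethasone. Its log2 fold change was -0.21 (95% interval -0.51 to 0.089, limma, adjusted p = 0.505). Rps23, a protein of the decoding centre, had 10760 to 17408 in control and 12727 to 13842 with dexamethasone, and a log2 fold change of -0.0069 (limma, adjusted p = 0.986). Rps29 (-0.020), Rps9 (-0.028), Rps3a (-0.045), Rps16 (-0.094) and Rps28 (-0.13) also failed the test, with adjusted p of 0.661 to 0.939 (limma). Rps27l, a paralog of Rps27 that p53 is known to induce, had low signals of 130 to 189 in control and 107 to 188 with dexamethasone, and its log2 fold change was -0.17 (limma, adjusted p = 0.767). The median over the 13 small subunit genes was -0.028.

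In the large subunit the median over the 27 genes tested was -0.046, and the values ran from -0.25 to 0.18. Rpl5 and Rpl11 enter the ribosome with 5S ribosomal RNA and, when free, bind Mdm2 and so stabilise p53. Rpl5 read 9366, 10441, 11363 and 10225 in control and 10083, 10093, 10305 and 10755 with dexamethasone, and its log2 fold change was -0.0026 (95% interval -0.16 to 0.16). For Rpl11 the signals were 6729, 7299, 6939 and 7360 in control and 6256, 7339, 7678 and 7277 with dexamethasone, with a log2 fold change of 0.0082 (95% interval -0.17 to 0.19). In both genes the groups overlapped over most of their range, and the interval lay inside 1.3-fold.

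The lateral stalk of the large subunit recruits the translation factors. Rplp0, the base of the stalk and a common reference gene, read 7196, 7186, 8495 and 6829 in control and 6437, 7091, 7597 and 7083 with dexamethasone. The groups overlapped, and the log2 fold change was -0.072 (95% interval -0.26 to 0.12, limma, adjusted p = 0.747). Rpl12, which joins the stalk base, had 5724 to 6726 in control and 5824 to 6314 with dexamethasone, and a log2 fold change of -0.064 (limma, adjusted p = 0.745).

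Around the exit tunnel, through which the growing peptide leaves, Rpl4 was the other member without overlap between the groups. Its signal was 6818, 6576, 6808 and 6747 in control and 7566, 7025, 7046 and 6918 with dexamethasone. The groups lay close together, with 6818 as the highest control and 6918 as the lowest dexamethasone value. The log2 fold change was small, 0.083 (95% interval -0.066 to 0.23, limma, adjusted p = 0.606, two-sided exact permutation p = 0.0286). Rps15a and Rpl4 were the 2 of 40 genes without overlap, while 11.0% of all probe sets tested had none.

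Rpl22, near the rim of the tunnel, read 8540, 10306, 12698 and 8773 in control and 9060, 8944, 8107 and 8064 with dexamethasone. Its log2 fold change was -0.22 (95% interval -0.48 to 0.032, limma, adjusted p = 0.388), and -0.10 without control replicate 3. Rpl39, a very small protein of the tunnel wall, had signals of 333 to 473 in control and 341 to 617 with dexamethasone, and the highest positive difference of the large subunit, 0.18 (95% interval -0.22 to 0.58, limma, adjusted p = 0.688). Rpl23a, which docks the signal recognition particle, had 0.11, Rpl35 -0.0072 and Rpl26 -0.034 (limma, adjusted p = 0.650, 0.983 and 0.881). Rpl19, also at the tunnel rim, had -0.10 (limma, adjusted p = 0.730).

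Rpl34 had the most negative difference of the large subunit. It read 4674, 5206, 6401 and 4586 in control and 4637, 4347, 4060 and 4411 with dexamethasone. Of the dexamethasone arrays only replicate 1 was above the lowest control array, and control replicate 3 was the highest of all. The log2 fold change was -0.25 (95% interval -0.48 to -0.0088, limma, adjusted p = 0.290), and -0.14 without control replicate 3. Rpl18 had signals of 8226 to 12156 in control and 7474 to 8421 with dexamethasone, its control replicate 3 was again the highest, and its difference of -0.23 (adjusted p = 0.364, limma) became -0.10 without that array. Rpl13a, which can leave the ribosome to repress inflammatory transcripts, had -0.17 (limma, adjusted p = 0.509), with 6211 to 8638 in control and 6253 to 7808 with dexamethasone. Rpl3, at the peptidyl transferase centre, had signals of 10978 to 14957 in control and 11480 to 12912 with dexamethasone, and a log2 fold change of -0.046 (limma, adjusted p = 0.859). Rpl37a varied most among the tested genes, from 3285 on control replicate 2 to 7422 on control replicate 3, so that its interval of -0.51 to 0.47 leaves a change past 1.3-fold possible in either direction.

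Among members whose mutation causes Diamond-Blackfan anaemia, 8 of the 15 genes looked for were members with a probe set, all 8 were tested, and 0 passed the test. Over all probe sets tested 2.69% passed, and 0 of 8 is near that share. Their log2 fold changes ran from -0.23 (Rpl18) to 0.094 (Rps24), with a median of -0.027, and Rpl35a had -0.048 (limma, adjusted p = 0.824). The 31 probe sets shared with copies or pseudogenes, which the choice of members left out, gave a similar picture. Of these, 0 had an adjusted and 0 an unadjusted p under 0.05 (limma), the median was -0.069, and 26 of the 31 intervals lay inside 1.3-fold. The value farthest from 0, -0.73 (limma, adjusted p = 0.530), came from a probe set with signals of only 23.9 to 228.

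Among the 8 arrays, control replicate 3 stood apart for the ribosomal protein genes as well. The median deviation of the 40 genes from their own means was 0.16 on the log2 scale on control replicate 3 and between -0.057 and 0.016 on the other 7 arrays. Control replicate 3 held the highest of the 8 values for 23 of the 40 genes and the lowest for 6. The 23 genes had mean signals of 4243 to 13220 and the 6 genes of 1466 to 9249, so that the ranges overlapped. Genes at their lowest on that array included Rps3, Rps15a and Rpl24. After quantile normalization, which gives every array the same distribution of signals, control replicate 3 held the highest value for 9 genes and the lowest for 12, and its median deviation was 0.0026. Without control replicate 3 the median log2 fold change of the 40 genes was -0.0080, and 0 passed the test.

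**Figure D3:**
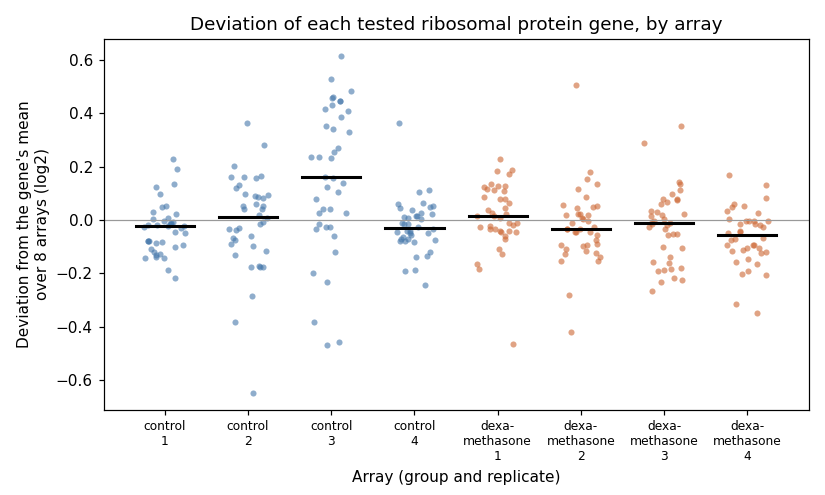
Deviation of each tested ribosomal protein gene (points, 40 genes) from its own mean over the 8 arrays, on the log2 scale, by array, with the median (line). Control replicate 3 has a median of 0.16 and the widest scatter, and the other medians lie between -0.057 and 0.016.

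The 2 array sets gave medians of opposite sign, 0.026 for the first set and -0.13 for the second, which includes control replicate 3. With a block for array set, 0 of the 40 genes passed the test, while 344 of all probe sets were higher and 234 lower. On the signals as deposited, without rescaling, the median of all probe sets moved by 0.16 on the log2 scale. The median of the 40 genes was then 0.12, still 0 passed the test, and over all probe sets 34 were higher and 2 lower, against 195 higher and 84 lower after rescaling. The ratio of the 3′ to the 5′ control probe set of beta-actin, which rises as RNA is degraded or shortened by amplification, was 8.10 to 13.7 in control, highest on control replicate 3, and 6.17 to 8.07 with dexamethasone. The same ratio for Gapdh overlapped between the groups, with 2.10 to 3.79 in control and 2.14 to 3.18 with dexamethasone, and it was not used as a covariate. When the fit held the beta-actin ratio (log2) as an added term, the median of the 40 genes was 0.021 and 0 passed the test, and the values of Rps15a and Rpsa became 0.087 and -0.0051. The beta-actin ratio did not overlap between the groups, so this fit cannot tell the ratio from dexamethasone.

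Other genes of the translation machinery were set beside the ribosomal proteins. Rack1, a kinase scaffold on the small subunit whose name the rule does not cover, read 7103, 7183, 9786 and 7978 in control and 7692, 7365, 7956 and 8464 with dexamethasone. The groups overlapped, and its log2 fold change was -0.016 (95% interval -0.24 to 0.21, limma, adjusted p = 0.966). Rpl7l1, a paralog that acts in ribosome assembly, had -0.022 (limma, adjusted p = 0.941). Of 46 translation factors, 0 passed the test in either direction, 2 had an unadjusted p under 0.05 (limma) and the median was -0.067. The smallest p belonged to Eif4a2, an RNA helicase of initiation, whose signal was 2765 ± 45.3 in control and 3429 ± 360 with dexamethasone (mean ± SD, n = 4 each), with a log2 fold change of 0.30 (limma, adjusted p = 0.121). A block for array set gave it an adjusted p of 0.0411 (limma). Of 12 other transcripts known to carry a TOP tract, some of them also translation factors, 0 passed, 1 had an unadjusted p under 0.05 (limma) and the median was -0.012. That 1 was Hnrnpa1, an RNA-binding protein, at -0.28 (limma, adjusted p = 0.206). Over all probe sets tested 2.69% passed and 16.1% had an unadjusted p under 0.05 (limma). The 0 genes passing among these 46 and 12 are near the overall share, and no difference from it was tested.

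Nucleolar factors that make ribosomes, and the separate ribosomal proteins of mitochondria, had medians further below 0, but none of them passed the test. Of 53 ribosome biogenesis genes, 0 were higher and 0 lower, 10 had an unadjusted p under 0.05 (limma), 42 were negative and the median was -0.17. Nhp2, a protein of the particles that pseudouridylate ribosomal RNA, read 1290, 1476, 1813 and 1102 in control and 843, 1066, 972 and 1026 with dexamethasone. The groups did not overlap, and its log2 fold change was -0.52 (95% interval -0.85 to -0.19, limma, adjusted p = 0.0993). Of 71 mitochondrial ribosomal protein genes, 0 were higher and 0 lower, 13 had an unadjusted p under 0.05 (limma), 65 were negative and the median was -0.17. Mrpl12, of the large mitochondrial subunit, had -0.52 (limma, adjusted p 0.0908), which became 0.0484 (limma) with a block for array set. Its signal was 1002 ± 230 in control and 688 ± 31.0 with dexamethasone (mean ± SD, n = 4 each). Over all probe sets tested, 2.69% passed the test and 54.1% were negative. An unadjusted p under 0.05 (limma) was found in 16.1% of them, near the shares of these lists. The difference between these lists and the cytosolic ribosomal proteins was not tested.

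**Figure D4:**
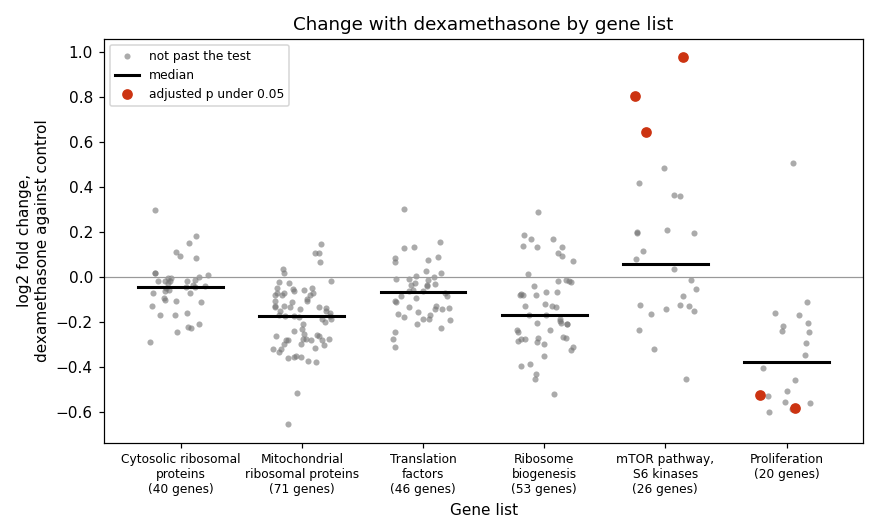
Difference in log2 signal between dexamethasone and control (n = 4 arrays a group) for the tested genes of each list (points), with the median (line). Red points have an adjusted p under 0.05, and these are 3 genes of the mTOR list and 2 proliferation genes, with none among the 40 cytosolic ribosomal protein genes.

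Among 26 genes of the mTOR pathway and the S6 kinases, 3 were higher with dexamethasone and 0 lower, against 1.88% and 0.81% of all probe sets tested. All 3 are known brakes on translation or on mTOR. Other brakes of the list went both ways without passing, such as Deptor at 0.49, Tsc1 at 0.36, Akt1s1 at -0.24 and Tsc2 at -0.15. A block for array set gave Deptor an adjusted p of 0.0446 (limma), and 4 genes of the list were then higher and 0 lower. Eef2k, the kinase that inhibits elongation factor 2, read 233, 279, 251 and 193 in control and 410, 397, 436 and 414 with dexamethasone. The groups were far apart, with a log2 fold change of 0.80 (95% interval 0.50 to 1.11, limma, adjusted p = 0.00930). Sesn1, an inhibitor of mTOR complex 1 through amino acid sensing, read 126, 189, 107 and 133 in control and 300, 277, 233 and 263 with dexamethasone. Its log2 fold change was 0.98 (95% interval 0.56 to 1.40, limma, adjusted p = 0.0183). Ddit4 (REDD1), which inhibits mTOR complex 1 through the Tsc proteins, read 1184, 1076, 1103 and 1153 in control and 1571, 1430, 2117 and 2027 with dexamethasone, without overlap. Its log2 fold change was 0.64 (95% interval 0.35 to 0.93, limma, adjusted p = 0.0248). Leaving out 1 array ended the call of Ddit4 in 4 cases (control replicates 2 and 3, dexamethasone replicates 3 and 4), with values of 0.56 to 0.63, and that of Sesn1 in 3 cases (dexamethasone replicates 1, 2 and 4), with 0.92 to 0.99. With the beta-actin ratio as a covariate none of the 3 passed, but that ratio did not overlap between the groups and cannot be told from dexamethasone.

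The kinases themselves did not pass the test. Mtor had a log2 fold change of -0.13 (limma, adjusted p = 0.654), and Rps6kb1, the kinase of Rps6, had -0.12 (limma, adjusted p = 0.818). Myc, a transcription factor that drives ribosome production, had 0.36 (95% interval -0.23 to 0.95, limma, adjusted p = 0.562), at 0.77 for replicates 1 and 2 alone and -0.048 for the other 2 of each group. Of 20 proliferation genes, 2 were lower and 0 higher, with a median of -0.38, while 0.81% of all probe sets tested were lower and 1.88% higher. With a block for array set, 2 were lower and 1 higher. The higher gene was Rrm1 at 0.51, with an adjusted p of 0.0684 without the block and 0.0172 with it (limma). Cdc20, an activator of the anaphase-promoting complex, fell by 0.58 and Top2a, a topoisomerase of dividing cells, fell by 0.53 on the log2 scale (limma, adjusted p = 0.0316 and 0.0488). The call of Cdc20 was lost in 7 and that of Top2a in 8 of the 8 fits that each left out 1 array, with values of -0.60 to -0.52 and -0.57 to -0.44. The response to the hormone itself was present in these cultures, since Sgk1, a kinase induced by glucocorticoids, rose by 3.19 on the log2 scale (limma, adjusted p = 1.09e-06). Fkbp5, Tsc22d3 and Per1, also induced by glucocorticoids, rose by 2.14, 2.16 and 1.62. Per1 read only 60.9 to 89.5 in control and 192.5 to 267.1 with dexamethasone. It passed the filter on mean signal through its dexamethasone arrays alone, and the size of its rise rests on low control signals.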

How the data were processed

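RNA of 8 samples of SCCD primary cultures had been amplified in 2 cycles and hybridised to Affymetrix RAE230A arrays. The authors deposited 1 intensity (signal) per probe set and array, on a linear scale, which per the labels had been scaled to a target of 500. On replicates 3 and 4 the trimmed mean was below this target, so every array was rescaled to a trimmed mean of 500 (2% left out at each end). Signals under 16 were set to 16 and log2 was taken. Of 15866 probe sets other than array controls, the 10368 with a mean signal of at least 100 were tested, dexamethasone minus control, with limma 3.58.1 in R 4.3.3 (mean-variance trend, two-sided) and Benjamini-Hochberg adjustment over all 10368. A call needed an adjusted p under 0.05. The number of arrays limits the precision. The fit was tested on simulated data. Symbols came from the platform annotation, which gave 12783 probe sets a single symbol and 312 several. The genes named are the 5 members with the largest difference in each direction and the members of lists by role in the ribosome. From each pathway list the genes that passed the test are named or, with none, the gene with the smallest p. Of the cell type markers, those that passed the test are named. Rpl3, Rpl13a, Rpl24, Rpl30, Rpl37a, Rps3a, Rps9, Rps16 and Rps23 were named after their values were seen. The same holds for Mtor, Rps6kb1, Myc, Deptor, Tsc1, Akt1s1, Tsc2, Rrm1, Krt8 and Krt19. The members and lists were chosen with earlier results of these data known. Alternatives were other scalings, filters and floors, blocks for array set and replicate number, the beta-actin ratio as a covariate, and leaving out each array. Exposure time and RNA extraction batches for the arrays are not given in the sources used here.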

Additional observations from a re-analysis of the deposited data

Results flagged for a closer look

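In 5 of the control groups of the ribosomal protein genes a single array stood far from the other 3. On control replicate 3, Rps3 was the lowest at 7061 (the others at 9099 to 9542), Rps28 the highest at 11806 (8291 to 8744) and Rps3a the highest at 13452 (9992 to 10083). Rpl13a was the lowest on control replicate 4 at 6211 (8189 to 8638), and Rpl35a the highest on control replicate 2 at 6214 (5390 to 5519). The gap exceeded 95% of those that chance gives in groups of this size. Chance alone passes this in about 1 of 20 groups, or about 4 of the 84 groups looked at if these were independent. The genes were read on the same arrays, so the groups are not independent. The 5 found can therefore not be judged against that number, and their cause was not tested.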

How the results depend on the processing

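Under every alternative run, 0 of the tested ribosomal protein genes were higher and 0 lower. The median log2 fold change of the members tested, -0.0436, changed sign in replicates 1 and 2 alone (0.0262) and on the signals as deposited (0.1198), and was -0.1316 in replicates 3 and 4 alone. It also changed sign, to 0.0211, with the beta-actin ratio, which did not overlap between the groups, as a covariate. Leaving out 1 array gave -0.0742 to -0.0080. The cause was not tested. With the 31 probe sets shared with copies, an alternative chosen after seeing the data, it was -0.0607. Of 919 values of single members under 23 alternatives, 58 moved by more than the replicate spread and 861 did not. With a replicate block the median was -0.0436 and no member was called, while calls over all probe sets rose to 308 higher and 176 lower. Arrays of the same number correlated at 0.352, 0.252, 0.0347 and 0.406 in their deviations from the group means, and not every array correlated best with its own number, so the numbers were not treated as pairs. Whether they mark shared cultures is not given. Over all probe sets, 195 higher and 84 lower became 81 and 21 with no filter, 57 and 8 with the covariate, 19 and 2 in replicates 3 and 4 alone, and 286 and 154 in replicates 1 and 2 alone. Without control replicate 2, 142 were higher and 49 lower. Ddit4 and Sesn1 missed the threshold with no filter.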
